A study of Gallus gallus with 6 samples.

Results

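The genes described here encode the inhibin and activin subunits (INHA, INHBA and INHBB), the activin-binding protein follistatin (FST), anti-Mullerian hormone (AMH) and its receptor (AMHR2), and the oocyte ligands GDF9 and BMP15. Members were all probe sets whose only symbol in the platform's annotation was one of these 8 genes, taken without regard to signal, which gave 15 of the 38535 probe sets on the array. They belong to 7 of the genes; AMHR2 had no such probe set and is not described further. Ovaries came from 3 hens with ovarian cancer (hens 4, LB14 and LB11) and from 3 hens labelled Normal (hens 36, LB3 and LB22), with 1 Affymetrix chicken array per hen. The design text says that age and laying status were matched, that tumours had reached stage 2 or 3, the latter with spread in the abdomen, and that whole ovaries were sampled. The labels give no strain, age or stage for a single hen.

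Inhibins and activins are dimers built from shared subunits. An alpha subunit with a beta subunit makes an inhibin, which restrains follicle-stimulating hormone from the pituitary, and a pair of beta subunits makes an activin, which promotes it and acts locally through type I and type II receptors and SMAD proteins. In the hen ovary the granulosa cells around the yolk-filled oocyte make the subunits: the beta A subunit is best known from the granulosa of the largest follicles, and the beta B subunit from smaller ones. AMH is made by granulosa cells of small growing follicles, while GDF9 and BMP15 are made by the oocyte and act on the granulosa cells next to it.

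Values are deposited linear signals, in which each array had been scaled to the same trimmed mean. A background limit was set on each array as the 95th percentile of 59 control probe sets picked by name. Their target RNA was taken to be absent, which was not tested. The limit was 25.5 on the array of tumour 4 and between 38.6 and 44.6 on the others. Differences are cancer minus Normal on the scale log2(signal + 16), with limma's moderated SE and a Benjamini-Hochberg adjustment over all 38439 probe sets other than controls; the call threshold was an adjusted p of 0.05. The labels name separate hens, and 3 arrays per group limit the precision of every value. FOXL2 and FSHR, which mark granulosa cells, and DAZL, which marks germ cells, were above the limit on all 6 arrays. Between 68.2% and 76.1% of all probe sets were above it on each array, so this is a weak check of the ovary label. The tumour arrays also held egg-white transcripts, such as SPINK7 (ovomucoid). On its brightest probe set it was above the limit in all 3 tumours and in no normal ovary. Some dimmer probe sets of SPINK7 were also above the limit in 2 normal ovaries. Because whole ovaries were sampled, fewer cells of a type and less RNA per cell cannot be told apart.

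The members did not move as one. INHBB, and AMH and INHA on their brightest probe sets, were lower in each of the 3 tumours than in every normal ovary, FST was lower in 2 of 3 tumours, INHBA was higher in the tumours on average with overlapping groups, and the oocyte ligands GDF9 and BMP15 had close means in both groups. With limma, 0 of the 15 member probe sets were called in either direction, where 0.0156% of all probe sets were called lower and 0.0989% higher. At an unadjusted p under 0.05, 7 of the 15 were lower and 0 higher, where 3.9% of all probe sets were lower and 4.41% higher. These 7 were both probe sets of INHA, INHBB and FST and the brightest of AMH. Probe sets of the same gene are repeated readings of it in the same hens. The groups did not overlap for 4 of the 15, all lower in cancer: both probe sets of INHBB and the brightest of INHA and AMH. Over all probe sets, 6.4% were lower without overlap and 6.88% higher. The members were chosen with earlier results of these data known. The median difference of the 15 was −0.33, against 0.02 over all probe sets tested. That median was the value of the dimmer GDF9 probe set, which was at or below the limit on all 6 arrays.

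**Figure D1:**
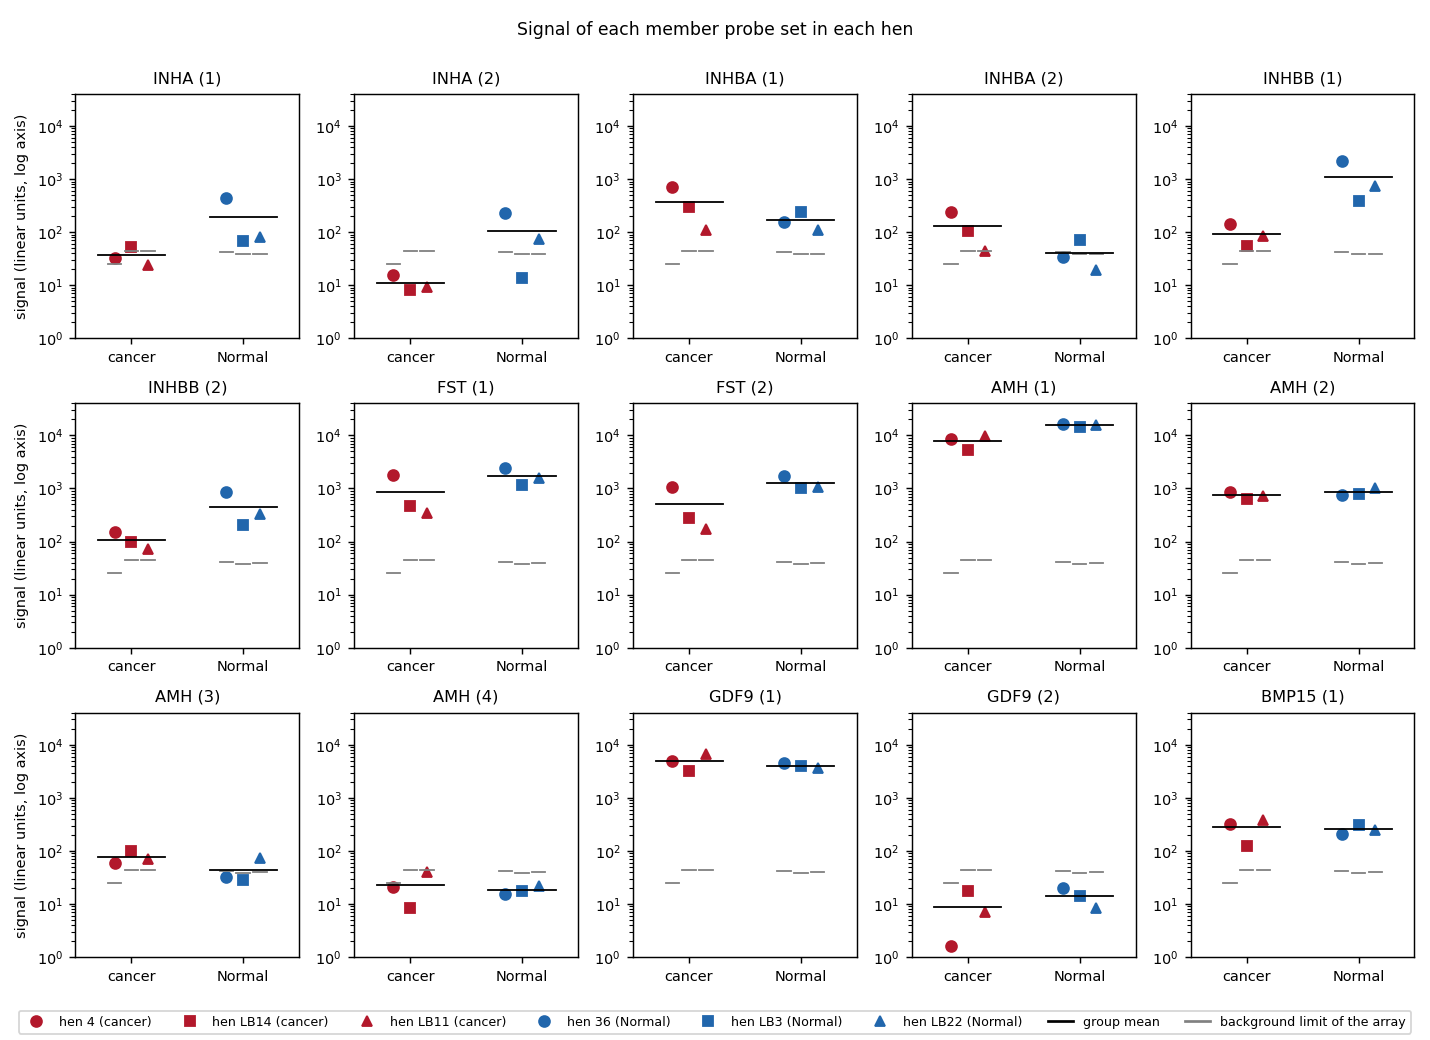
Signal of each of the 15 member probe sets (linear units on a log axis) in the 3 cancer and 3 Normal hens, where the black line is the group mean and the grey marks are the background limits of the arrays; probe sets of a gene are numbered from the brightest. INHBB (1) spans 54.2 to 142 in cancer and 390 to 2178 in Normal, without overlap, whereas GDF9 (2) and AMH (4) lie at or below the limit on all 6 arrays.

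INHBB, the beta B subunit shared by inhibin B and activin B, had the largest difference of the members. On its brighter probe set, numbered (1) in the plots, the signals were 142, 54.2 and 86.1 in the tumours of hens 4, LB14 and LB11, against 2178, 390 and 727 in the normal ovaries of hens 36, LB3 and LB22. Every normal ovary was thus above every tumour, and the normal ovaries differed more among themselves than the tumours did, with an SD on the log2 scale of 0.58 in cancer and 1.23 in Normal. The group means were 94.0 ± 44.3 in cancer and 1098 ± 951 in Normal (SD, n = 3 hens each). The difference was −3.06 (SE 0.57, 95% interval −4.34 to −1.79, limma adjusted p = 0.141), which is not past the threshold. It was −2.40 without normal hen 36, the highest array, and −3.62 without normal hen LB3. Some hens carry the prefix LB in their titles, with no stated meaning; with the prefix as a block in the limma fit this probe set passed (adjusted p = 0.026), and among the LB hens alone, 2 against 2, its difference was −2.70 (limma adjusted p = 0.342). It also passed when signals below background were raised to the limit, an alternative chosen after seeing the data (limma adjusted p = 0.0359).

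The second INHBB probe set gave a smaller difference in the same direction. Its signals were 153, 98.9 and 72.2 in tumours 4, LB14 and LB11, against 843, 202 and 324 in normal ovaries 36, LB3 and LB22. The groups again did not overlap, and the normal ovaries stood in the same order as on the first probe set, with hen 36 highest and hen LB3 lowest. The difference was −1.74 (SE 0.49, limma adjusted p = 0.353).

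INHA encodes the alpha subunit, which every inhibin needs and no activin contains. Its brighter probe set read 33.1, 52.0 and 24.1 in tumours 4, LB14 and LB11, against 434, 68.7 and 80.6 in normal ovaries 36, LB3 and LB22. The groups did not overlap, but the signals were dim, and hen 36 alone stood far above the rest. Above their limits were 2 of the 3 tumours and all 3 normal ovaries. Tumour 4, at 33.1, was above its own limit of 25.5 but below those of the other arrays. The difference was −1.59 (SE 0.61, limma adjusted p = 0.52), and it was −0.82 without normal hen 36. On the other probe set INHA read 15.5, 8.09 and 9.13 in the tumours, against 227, 13.5 and 74.5 in the normal ovaries. None of the 3 tumours was above its limit there, nor was normal ovary LB3. With the tumours set to the limits of their arrays, the geometric mean signal was 1.66-fold lower in cancer. Normal ovary LB3 entered that ratio as read, below its own limit, so the ratio is no firm minimum. The groups overlapped, as normal ovary LB3 read below tumour 4. Measured arithmetic means were 10.9 in cancer and 105 in Normal. The fitted difference was −1.70 (limma adjusted p = 0.527), and it was −0.95 without normal hen 36.

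INHBA, the beta A subunit of inhibin A and activin A, leaned the other way. Its brighter probe set read 704, 297 and 109 in tumours 4, LB14 and LB11, against 158, 240 and 110 in normal ovaries 36, LB3 and LB22. The tumour of hen 4 was the highest of the 6 arrays, and tumour LB11 was level with the lowest normal ovary. The difference was 0.78 (SE 0.57, 95% interval −0.51 to 2.07, limma adjusted p = 0.809). It was 0.16 without tumour 4 and 1.42 without tumour LB11. The second probe set had 243, 107 and 44.1 in the tumours and 33.9, 70.9 and 19.0 in the normal ovaries, with a difference of 1.22 (SE 0.56, limma adjusted p = 0.619), or 0.69 without tumour 4. It was dim, above the limit in 2 tumours and 1 normal ovary, and its difference was 0.93 with signals raised to the limit. Both probe sets put the tumours in the order 4, LB14, LB11 and hen LB3 highest among normal ovaries.

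FST encodes follistatin, which binds activin and keeps it from its receptors. Its brighter probe set read 1774, 471 and 350 in tumours 4, LB14 and LB11, against 2437, 1143 and 1595 in normal ovaries 36, LB3 and LB22. Tumours LB14 and LB11 were below every normal ovary, while tumour 4 lay within the normal range. The difference was −1.28 (SE 0.54, limma adjusted p = 0.576), and it was −1.97 without tumour 4 and −0.83 without tumour LB11. The second probe set read 1082, 277 and 170 in the tumours and 1688, 1034 and 1072 in the normal ovaries, with a difference of −1.68 (SE 0.56, limma adjusted p = 0.455) that became −2.42 without tumour 4 (adjusted p = 0.0611). Tumour 4 was thus the highest tumour for FST, INHBA and INHBB on all 6 of their probe sets.

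Whether the subunits changed unequally was asked of the ratio between genes within each hen, on the brightest probe set of each gene. A ratio of signals from different probe sets has no meaning as a level, and its values serve only to compare the groups. The log2 ratio of INHBB over INHBA was −2.19, −2.16 and −0.30 in tumours 4, LB14 and LB11, against 3.66, 0.66 and 2.56 in normal ovaries 36, LB3 and LB22. The ratio was lower in every tumour than in any normal ovary, and the mean difference was −3.84. The ratio of FST over INHBA differed by −2.06, also with no overlap. The ratio of INHA over INHBA differed by −2.37, but its groups were separated only by tumour LB11 at −1.65 and normal ovary LB3 at −1.60, and INHA in tumour LB11 was below the limit. With signals raised to the limit, an alternative chosen after seeing the data, the groups of this ratio overlapped (difference −2.17, exact permutation p = 0.2), as they did with a pseudocount of 64 (−1.77). It was −0.93 in the LB hens alone. Each of the 3 ratios had an exact two-sided permutation p of 0.1 (0.1 after adjustment over the 3), which is the smallest that 3 hens against 3 can give and cannot reach 0.05. INHBA thus stood higher relative to INHBB and FST in the 3 tumours than in the 3 normal ovaries of this series.

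AMH, the hormone that makes the Mullerian duct regress in male embryos and that small follicles make in the adult ovary, was read by 4 probe sets that disagreed. The brightest had 8519, 5317 and 9929 in tumours 4, LB14 and LB11, against 16132, 14502 and 15508 in normal ovaries 36, LB3 and LB22. All 3 normal ovaries lay close together and above all 3 tumours, with means of 7922 ± 2363 in cancer and 15381 ± 822 in Normal (SD, n = 3 each). The difference was −1.0 (SE 0.23, 95% interval −1.52 to −0.48, limma adjusted p = 0.25). On the next probe set AMH read 842, 638 and 734 in the tumours and 761, 779 and 1023 in the normal ovaries, groups that overlapped, and the difference was −0.20 (95% interval −0.66 to 0.26). The third was dim, above the limit in 3 tumours and 1 normal ovary, with a difference of 0.66 (95% interval −0.19 to 1.52). The fourth was at or below the limit on all 6 arrays and is given no fold. Averaged over its 2 probe sets above the limit on all 6 arrays, AMH differed by −0.60, with no overlap (exact two-sided permutation p = 0.1, the smallest 3 hens against 3 can give). Averaged over all 4, the 2 near background included, it differed by −0.11 (exact two-sided permutation p = 0.7).

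GDF9, an oocyte ligand that acts on granulosa cells, also had disagreeing probe sets. One was bright, with 5021, 3159 and 6624 in tumours 4, LB14 and LB11, against 4478, 3969 and 3710 in normal ovaries 36, LB3 and LB22. The tumours spread around the normal ovaries on both sides, and the difference was 0.22 (SE 0.26, 95% interval −0.36 to 0.80, limma adjusted p = 0.887). The other, read from 1.63 to 17.9 in the tumours and from 8.51 to 20.5 in the normal ovaries, was at or below the limit on all 6 arrays. In the Affymetrix naming scheme the ending _s_at marks a probe set whose probes match several transcripts, and the brightest probe sets of GDF9, AMH and INHA all carry it. The part of other transcripts in these signals was not tested.

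BMP15, the close relative of GDF9 in the oocyte, had a single probe set, above the limit on all 6 arrays. Its signals were 327, 123 and 385 in tumours 4, LB14 and LB11, against 208, 307 and 253 in normal ovaries 36, LB3 and LB22. The tumours held both the lowest and the highest value. The difference was −0.01 (SE 0.40, limma adjusted p = 0.998), and its 95% interval, −0.91 to 0.89, leaves room for changes of either sign.

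**Figure D2:**
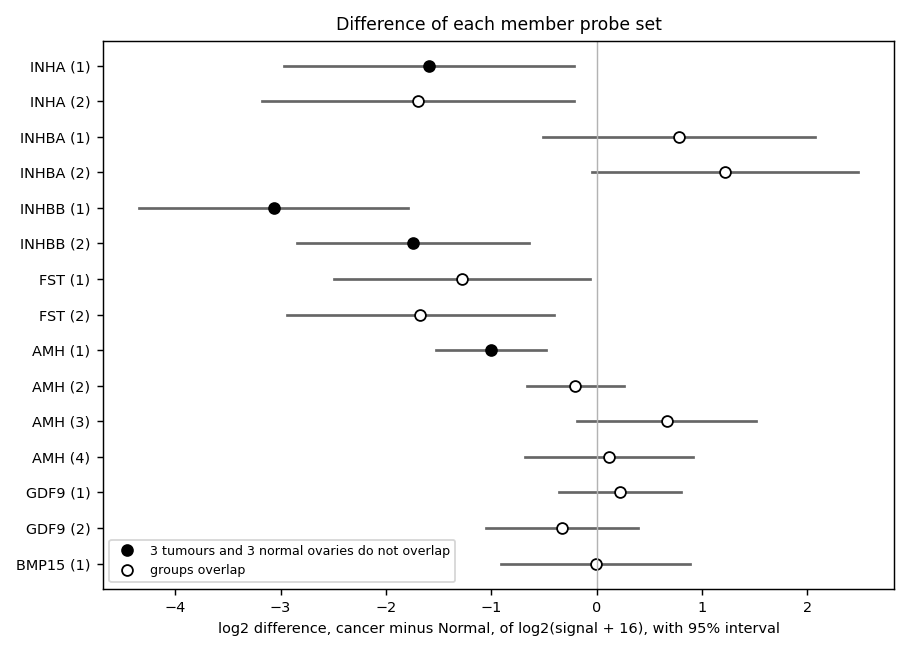
Difference between cancer and Normal for each member probe set on the scale log2(signal + 16), with limma's 95% interval; filled points are probe sets whose 3 tumours and 3 normal ovaries do not overlap. The 4 filled points, INHA (1), both INHBB probe sets and AMH (1), lie below 0, and BMP15 lies at −0.01.

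Among the tumours, GDF9 on its bright probe set and BMP15 put the hens in the same order, with LB11 highest, 4 next and LB14 lowest, and 6 of the 9 measured germ cell markers had that order too, compared with 19.4% of all genes. Among the normal ovaries the ligands differed in order, with 36, LB3, LB22 for GDF9 and LB3, LB22, 36 for BMP15. There 5 of the 9 markers ran LB3, 36, LB22, as did 19.7% of all genes, 2 had the order of GDF9 and 1 that of BMP15. The germ cell list had 0 of 9 genes called by limma in either direction, with 1 higher and 0 lower at an unadjusted p under 0.05 and a median difference of 0.11. DAZL, an RNA-binding protein of germ cells, read 5509, 4007 and 6176 in tumours 4, LB14 and LB11, against 3830, 5312 and 3142 in normal ovaries 36, LB3 and LB22. The groups overlapped for 8 of the 9 markers, and DDX4, an RNA helicase of germ cells, was higher in the tumours without overlap (0.32, limma adjusted p = 0.817). Of the 9 markers, 8 were above the limit on all 6 arrays, and DND1 was below it in tumour 4 and normal ovary 36. The summed signal of the list ran from 13497 to 21804 in cancer and from 12140 to 16518 in Normal.

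**Figure D3:**
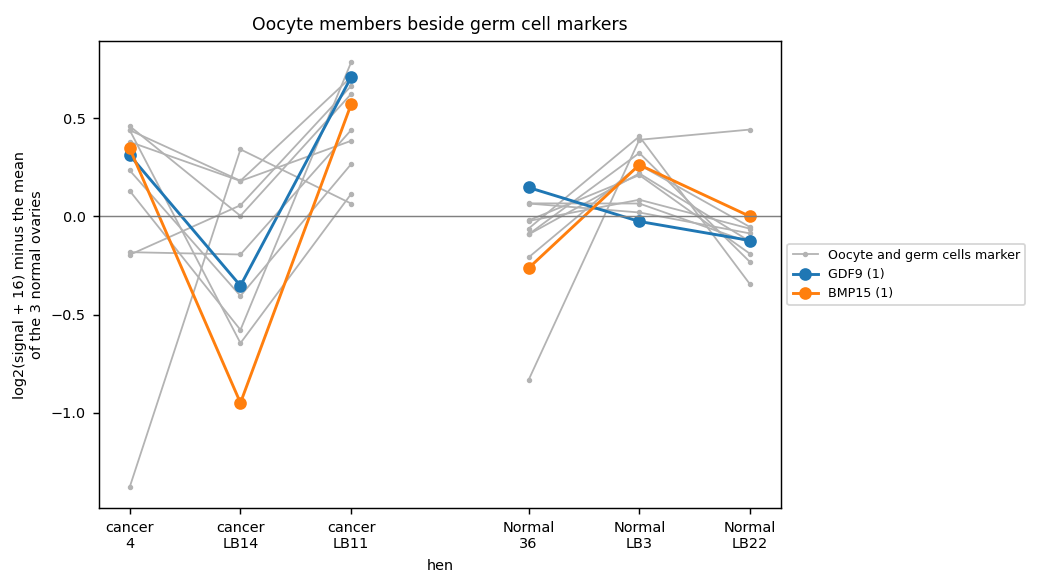
log2(signal + 16) of GDF9 (1), BMP15 and 9 germ cell markers in each hen, less the mean of the 3 normal ovaries; a line joins the values of 1 gene within a group. In cancer, GDF9 (1), BMP15 and 6 of the markers are highest in LB11 and lowest in LB14.

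Genes listed as granulosa cell markers were read beside the members, though which cells make them here was not tested for any of the 10. ZP3 (−3.52, limma adjusted p = 0.0103) and UMOD (−2.56, limma adjusted p = 0.0191) fell. Both calls were lost when certain hens were left out 1 at a time. For ZP3 the limma adjusted p was 0.0514 without tumour LB14 and 0.0991 without normal hen LB22. For UMOD it was 0.0698 without tumour 4, 0.118 without normal hen 36, 0.0591 without LB3 and 0.137 without LB22. With 1 hen left out, the difference ran from −3.98 to −3.19 for ZP3 and from −2.76 to −2.31 for UMOD. All 10 listed markers had a negative difference, with a median of −1.89; limma called 2 lower and 0 higher, where 0.0307% of all genes, each on its brightest probe set, were called lower and 0.208% higher. The groups did not overlap for 9 of the 10, all lower in cancer. Over all genes, 8.4% were lower without overlap and 7.73% higher. The list was chosen with earlier results of these data known, so these shares describe it and are no independent check. The summed signal of the 10 ran from 7591 to 16301 in cancer and from 21380 to 33501 in Normal. None of the 10 was below the limit on all 6 arrays, where 557 of all 13009 genes were. FOXL2, the transcription factor that maintains granulosa identity, kept a high signal, at 8910, 4913 and 11080 in tumours 4, LB14 and LB11, against 10938, 10929 and 11766 in normal ovaries 36, LB3 and LB22, with a difference of −0.51 (limma adjusted p = 0.69). FSHR, the receptor through which follicle-stimulating hormone acts, differed by −0.59 (limma adjusted p = 0.533). Its other probe set, nearly as bright, differed by −0.97 (limma adjusted p = 0.232), and the groups overlapped on neither. Steroid-making genes differed by more, with −3.44 for STAR and −3.25 for HSD3B1, neither called (limma adjusted p = 0.0935 for both); STAR passed without tumour LB11 (adjusted p = 0.00764), and both passed with signals raised to the limit (limma adjusted p = 0.0168 for STAR and 0.019 for HSD3B1). The part of granulosa cell number in the differences of the subunit genes was not tested.

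Among normal ovaries, INHBB, INHA and FST on both probe sets each, and AMH on its brightest, stood in the order 36, LB22, LB3. That AMH probe set differed little among them (log2 SD 0.08). The next AMH probe set, also above the limit on all 6 arrays, ran LB22, LB3, 36, and both of INHBA ran LB3, 36, LB22. Of the 10 granulosa markers 5 stood in the order 36, LB22, LB3, compared with 16.4% of all genes. ZP3, UMOD, HSD3B1 and STAR were among the 5. ZP3, an egg coat protein that granulosa cells make in birds, read 491, 308 and 312 in tumours 4, LB14 and LB11, against 6876, 2293 and 5121 in normal ovaries 36, LB3 and LB22. ZP3 was also the gene most like INHBB over the 6 arrays among 10375 genes, with a mean absolute difference of 0.42 (log2) between values centred on each gene's own mean. TH (tyrosine hydroxylase) followed at 0.44, with all 3 tumours at or below the limit, so that its likeness to INHBB rests on background values there. DBX2 was next at 0.47, with 2 of 3 tumours above the limit. Among the tumours the markers had no common order. Tumour 4, highest for INHBB, INHBA and FST, was also the highest tumour for 4 of the 10 markers (ZP3, FSHR, GATA4 and LHCGR), all in the order 4, LB11, LB14 of the brighter INHBB probe set, an order held by 17.8% of all genes. On its other probe set FSHR was highest in tumour LB11, at 651, against 624 in tumour 4. Tumour 4 was the lowest tumour for 3 other markers, STAR, HSD3B1 and CYP11A1, with signals of 76.6, 36 and 120.

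**Figure D4:**
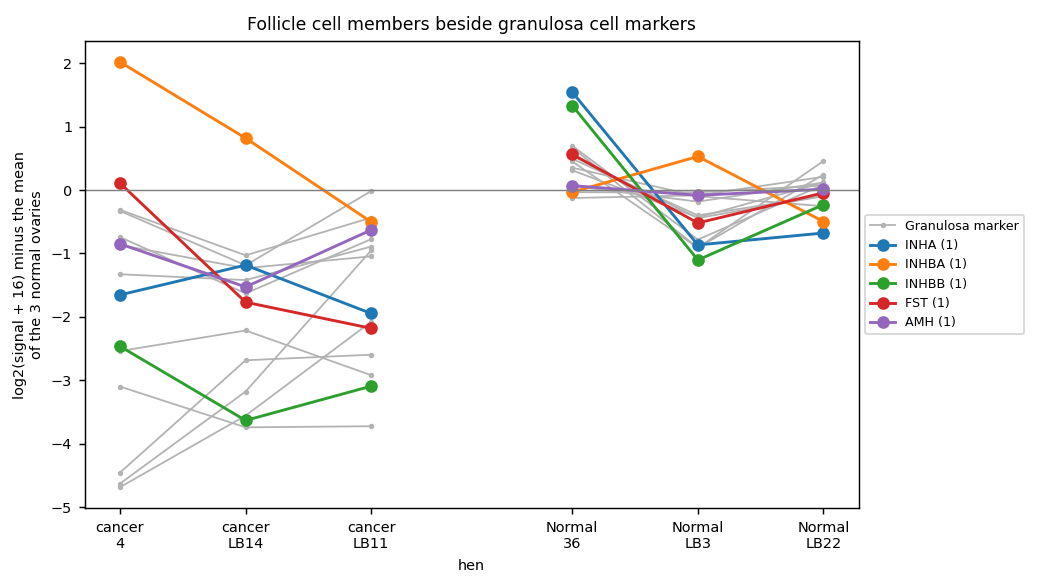
log2(signal + 16) of the subunit genes, FST and AMH (brightest probe set of each) and of 10 granulosa cell markers in each hen, less the mean of the 3 normal ovaries; a line joins the values of 1 gene within a group. INHBB lies between −3.63 and −2.47 in the tumours, among the lower markers, and INHBA lies above 0 in tumours 4 and LB14.

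By the same measure, the genes most like INHA were CENPO (0.36), MLANA (0.36) and VCAN (0.39), and those most like INHBA were SLC33A1 (0.21), PRKCQ (0.22) and CDH8 (0.23). FAM110B (0.25), SYT15 (0.33) and LAPTM4B (0.34) were nearest to FST. TGFBR2L (0.09), PKIG (0.09) and SLC6A2 (0.11) were nearest to AMH. TGFBR2L read 726, 567 and 842 in tumours 4, LB14 and LB11, against 1443, 1236 and 1397 in normal ovaries 36, LB3 and LB22, the same order of hens as AMH in both groups. DCLRE1B, HTR2C and NMB were nearest to GDF9, at 0.04, 0.04 and 0.05, and MAB21L2, USMG5 and EDN2 to BMP15, at 0.08, 0.09 and 0.10. These names are a description of 6 arrays.

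Around the members, 53 of 62 listed genes of the activin and BMP pathways had a probe set, and limma called 0 of them in either direction. At an unadjusted p under 0.05, 5 were higher and 7 lower, where 5.3% of all genes were higher and 5.24% lower. The groups did not overlap for 4 higher and 8 lower genes, where 7.73% of all genes were higher and 8.4% lower. The median difference of the 53 was −0.07, compared with −0.00392 over all 13009 genes.

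**Figure D5:**
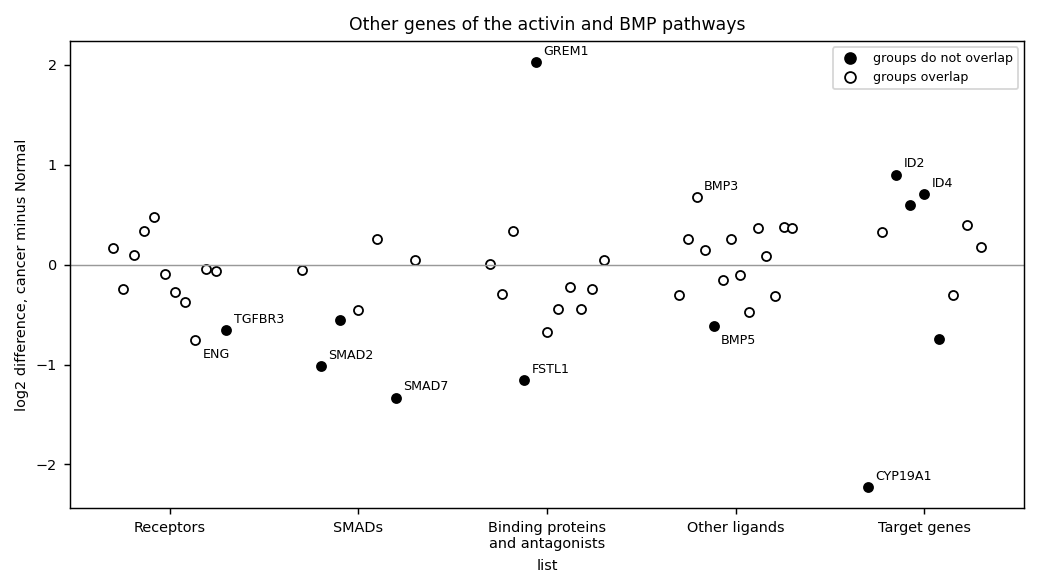
Difference between cancer and Normal, on the scale log2(signal + 16), of the 53 measured pathway genes by list, each on its brightest probe set; filled points are genes whose groups do not overlap. SMAD2, SMAD3 and SMAD7 lie below 0 without overlap, and GREM1, ID2, ID3 and ID4 above 0.

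Receptor genes differed little. Of 12 measured receptors, 1 was higher and 0 lower at an unadjusted p under 0.05, and the median was −0.08. ACVR2A, a type II receptor of activin, read 2088, 1442 and 1666 in tumours 4, LB14 and LB11, against 1575, 1691 and 1551 in normal ovaries 36, LB3 and LB22, with a difference of 0.09. The type I receptor gene ACVR1, listed as ATVR1, differed by 0.48. TGFBR3, the betaglycan that helps inhibin to block activin receptors, read 65.9, 80.2 and 91.5 in tumours 4, LB14 and LB11, against 118, 117 and 170 in normal ovaries 36, LB3 and LB22, without overlap and with a difference of −0.66 (limma adjusted p = 0.624). ENG, a co-receptor of endothelium, differed by −0.75 with overlapping groups, and by −0.12 without tumour 4 or −1.19 without tumour LB11. ACVR1B and ACVR1C, type I receptors of the activin and Nodal branch, were at or below the limit on all 6 arrays.

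SMAD proteins carry the signal to the nucleus. Of 7 measured SMAD genes, 5 had negative and 2 positive differences, with a median of −0.45 and 0 called by limma. At an unadjusted p under 0.05, 3 were lower and 0 higher, where 5.24% of all genes were lower. SMAD2, which serves activin and TGF-beta receptors, read 713, 1420 and 1033 in tumours 4, LB14 and LB11, against 2733, 1510 and 2154 in normal ovaries 36, LB3 and LB22. Tumour LB14 came close to normal ovary LB3, and the difference was −1.02 (SE 0.29, limma adjusted p = 0.364), or −0.57 in the LB hens alone. SMAD7, an inhibitor that activin and TGF-beta signals induce, read 365, 273 and 276 in the tumours and 1265, 497 and 760 in normal ovaries 36, LB3 and LB22, with a difference of −1.33 (SE 0.33, limma adjusted p = 0.292). Its next probe set differed by −1.17, and a dim one by 0.24. SMAD3, the partner of SMAD2, differed by −0.56 on its brightest probe set (−0.32 without tumour LB11) and by −0.12 on its other.

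Of 11 measured binding proteins and antagonists, 1 was higher and 2 lower at an unadjusted p under 0.05, with 0 called. FSTL1, a secreted glycoprotein with a follistatin-like domain, read 392, 340 and 452 in tumours 4, LB14 and LB11, against 1005, 640 and 1106 in normal ovaries 36, LB3 and LB22. The groups did not overlap, and the difference was −1.15 (SE 0.25, limma adjusted p = 0.219); its next brightest probe set differed by −1.0, and both others were dim. GREM1, which encodes the BMP antagonist gremlin, was at or below the limit in all 3 normal ovaries and above it in all 3 tumours, at 36.6, 202 and 73.4 in tumours 4, LB14 and LB11. The value of tumour 4 was above its own limit of 25.5 but below those of the other arrays. GREM1 was at least 2.04-fold higher in cancer (measured means 104 in cancer and 9.33 in Normal, limma adjusted p = 0.307). LTBP1, which anchors latent TGF-beta, differed by −0.67 with overlapping groups on its brightest probe set, and by −0.43 without tumour 4. Other bright probe sets of LTBP1 differed by −0.76 and −0.79 with overlap and by −0.92 without overlap (limma adjusted p = 0.364 for the last). A dim one differed by 0.22.

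No gene among the 14 measured other ligands was past an unadjusted p under 0.05 in either direction with limma, and 0 were called. BMP3 differed by 0.68, BMP5 by −0.61 and GDF3 by −0.47, of which only BMP5 had groups without overlap. Single hens moved these: BMP3 was 0.35 without tumour LB11, BMP5 −0.32 without tumour 4, and GDF3 −0.27 without tumour LB14 and −0.29 without normal hen LB22. BMP10, MSTN and NODAL were at or below the limit on all 6 arrays.

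Of 9 measured target genes, 3 were higher and 2 lower at an unadjusted p under 0.05, with 0 called. The ID genes, which encode inhibitors of helix-loop-helix factors and respond to BMP signals, all had positive differences. ID2 read 5609, 7273 and 4031 in tumours 4, LB14 and LB11, against 3046, 2769 and 2976 in normal ovaries 36, LB3 and LB22, with a difference of 0.90 (SE 0.22, limma adjusted p = 0.289). ID4 differed by 0.71 and ID3 by 0.60, also without overlap, and ID1 by 0.32 with overlap. PMEPA1, a target of TGF-beta signals, differed by −0.75 on its bright probe set, or −0.47 without normal hen 36. Its dimmer probe set, above the limit in 2 tumours and 3 normal ovaries, differed by −0.02 with overlap. CYP19A1, the aromatase that theca cells of the hen use to make oestrogen, read 840, 3988 and 6073 in tumours 4, LB14 and LB11, against 13178, 11501 and 14095 in normal ovaries 36, LB3 and LB22, with a difference of −2.23 (SE 0.59, limma adjusted p = 0.325), or −1.38 without tumour 4. It also marks theca cells. Of the listed theca markers, 3 were measured, all with negative differences: CYP17A1 (−3.29), CYP19A1 and NR5A2 (−0.41, with overlapping groups). Whether NR5A2 reads theca cells here was not tested. The 3 summed to between 1138 and 8622 in cancer and between 16774 and 23204 in Normal.

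Other cell types were read beside these. Of the 6 measured epithelial markers limma called 2 higher, where 0.208% of all genes were called higher. These were the adhesion genes CDH1 (5.44, limma adjusted p = 0.00554) and CLDN3 (limma adjusted p = 0.0204). CLDN3 was at least 49.4-fold higher, as no normal ovary was above the limit. The other markers were not called, and their groups overlapped on their brightest probe sets. KRT7 differed by 0.55, EPCAM by 0.46, CLDN4 by 0.16 and KRT19, read on a probe set of KRT24, by −0.35. Another bright probe set of EPCAM differed by 2.44 without overlap (limma adjusted p = 0.347). Its remaining one differed by 1.0 with overlap (limma adjusted p = 0.522). The limma adjusted p of CDH1 was 0.0501 without tumour 4, and that of CLDN3 ran from 0.0787 to 0.134 without tumour 4, tumour LB14 or any 1 normal hen. All 5 egg-white genes rose on their brightest probe sets. LYZ was not called without normal hen 36, LB3 or LB22 (limma adjusted p from 0.121 to 0.153). A further bright probe set of the egg-white gene TF differed by −0.14 with overlapping groups (limma adjusted p = 0.886), while its remaining probe sets were higher in cancer. The summed signal of the 5 egg-white genes ran from 52673 to 99228 in cancer and from 583 to 1267 in Normal. Stroma, smooth muscle, leukocyte, red cell and endothelial markers had 0 called in either direction with limma, with 1 smooth muscle gene higher and 1 endothelial gene lower at an unadjusted p under 0.05. Stromal markers summed to between 36430 and 96336 in cancer and between 79889 and 107960 in Normal. Tumour 4, where INHBA was highest, had the lowest COL1A1 of the 6 arrays, at 5138, against 20935 and 25880 in tumours LB14 and LB11 and between 19171 and 33144 in the normal ovaries. The part of these cell types in the members' differences was not tested.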

How the data were processed

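Biotin-labelled RNA from 6 hen ovaries was read on 1-colour Affymetrix arrays. Values deposited by the authors are linear intensity signals, 1 per probe set, from GCOS (submitters' processing notes, with no version or settings). With 2% of values trimmed from either end, every array had a mean of 500.1, so scaling had been done and no further normalization was applied; such scaling hides a change in total messenger RNA. Of 38535 probe sets, 96 controls were left out and 38439 tested without a signal filter. Of all probe sets, 27178 had 1 gene symbol, 177 several and 11180 none in the platform table; names were updated through a RefSeq gene table of GRCg7b, which changed 0 symbols. No sequences were used here.

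Signals were tested as log2(signal + 16) with limma 3.58.1 in R 4.3.3 (lmFit, eBayes with a trend, two-sided, Benjamini-Hochberg), a shifted scale that understates the change of dim genes. The step was run on simulated data with equal spread in both groups and changes planted in brighter probe sets. Unequal spread and changes in dim probe sets were not covered. The background limit was the 95th percentile of 59 control probe sets on each array. A fold given as a bound or set against the limits is a ratio of geometric means. In it, the group with no array above its limit was set to those limits, and the other group entered as read. A gene was represented by its brightest probe set by mean signal. The text names all members, list genes past the threshold, up to 3 per list by size and the 3 genes most like each member whose values span over 1 (log2), from those at or above the 40th percentile of mean signal (66.9). FOXL2, FSHR, CYP11A1, GATA4, LHCGR, DDX4, DND1, ACVR2A, ACVR1B, ACVR1C, ID1, ID3, ID4, BMP10, MSTN, NODAL, EPCAM, CLDN4 and KRT19 were added after their values were seen. ACVR1, ZAR1 and KRT19 were matched through synonyms, to probe sets with the symbols ATVR1, ZAR1L and KRT24. Whether the ZAR1L and KRT24 probe sets read the listed genes was not tested. The members and lists were chosen with earlier results of these data known. Figures were drawn with matplotlib 3.10.9.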

Additional observations from a re-analysis of the deposited data

How the results depend on the processing

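INHBB on its brighter probe set was the only member called under any of 17 alternatives, first with a block for the title prefix and again with signals raised to the background limit (chosen after seeing the data), so the count of lower member probe sets was 1 in both and 0 otherwise; the adjusted p ran from 0.026 to 0.551. In 243 of 251 member tests the sign held, and 11 of 15 probe sets never changed sign. BMP15 turned to 0.0113 with a pseudocount of 64 and 0.20 with array weights, and ran from −0.30 to 0.46 when 1 hen was left out. GDF9 ran from −0.0203 to 0.51 on its bright probe set, and its dim one was 0.0306 in the LB hens alone. The dimmest AMH probe set ran from −0.18 to 0.42, and was −0.0725 with signals raised to the limit. No member was called higher in any alternative.

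Over all probe sets, 38 were called higher and 6 lower. The higher count was 11 among LB hens only, 23 without a trend, 62 with a threshold of 0.1 and 78 with signals raised to the limit. The lower count was 10 with a pseudocount of 1, with the filter at the 40th percentile and with robust fitting, 3 with a pseudocount of 64, 0 among LB hens only, 2 without a trend, 14 with a threshold of 0.1 and 22 with signals raised to the limit. Leaving out 1 hen gave 20 to 139 higher and 0 to 14 lower: 24 and 3 without tumour 4, 139 and 14 without LB11, 22 and 1 without Normal 36, 20 higher without LB3, and 20 and 0 without LB22. The cause was not tested. No paired analysis was possible because the groups share no replicate numbers. The difference of all 3 ratios stayed negative in every alternative run. Signal over background limits INHA, INHBA (2), GDF9 (2), AMH (3) and AMH (4).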
